A study of Mus musculus with 4 samples.

Results

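The complement, coagulation and fibrinolysis genes were 33 genes chosen by symbol, of 55487 genes in the count table. They were read from whole mammary fat pad (MFP) RNA of 2 aged and 2 young female C57BL/6J mouse samples, given as 14 months and 8 weeks old, with no other treatment or allele in the labels. The samples are labelled biological replicates, and nothing says whether a sample was pooled. The tissue was lysed whole, with all its cell types. All 33 symbols were found, each on 1 row, and 32 passed the filter on low counts; Cfi did not.

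Complement is a cascade of plasma proteases that marks surfaces for removal. The C1 complex (C1q, C1r, C1s) and the lectin proteases cut C4 and C2, factor B and factor D amplify the cut of C3, and C5 to C9 form the membrane attack complex. The released fragments C3a and C5a signal through their own receptors on myeloid cells. Coagulation is started by tissue factor and ends in fibrin, which plasmin removes after urokinase or tissue plasminogen activator cuts plasminogen. Most of these proteins in plasma come from the liver, but macrophages make C1q, stromal cells make C1r, C1s and C1 inhibitor, and adipocytes are a main source of factor D (adipsin).

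At a Benjamini-Hochberg adjusted p of 0.05, edgeR's quasi-likelihood test called no member (0 of 32), as for all 22485 genes tested (0%). At an unadjusted p under 0.05 there were 8 members, against 10.5% of all genes tested. Log2 fold changes are aged over young, ± standard error (SE). Of the 8, 7 were higher in aged MFP (C3ar1, C5ar1, Cd59a, F3, Thbd, Pros1 and Plau, against 7.24% of all genes) and 1 was lower (Plaur, against 3.31%). DESeq2, run as an alternative, called 4 members, all higher in aged MFP (C5ar1, Cd59a, Pros1 and Plau), where it called 3.95% of the genes to which it gave an adjusted p. The aged pair exceeded the young pair, with no overlap, for 11 members, against 23.3% of all genes, and was below it for 2, against 22.8%. The median log2 fold change was 0.38 over the 32 members and -0.04 over all genes tested. The members were chosen with earlier results of these data known, so their counts describe these 4 libraries. With 2 samples against 2, no exact two-sided permutation p can be below 0.333.

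By arm of the cascades, 7 of 9 classical and lectin genes had a positive log2 fold change (median 0.50), as did 3 of 3 terminal genes (median 0.54) and 2 of 2 receptors of released fragments (median 1.10). C3, Cfb and Cfp were all negative (median -0.19), and the 6 complement regulators tested were split evenly (median -0.035). Of the 9 members of coagulation and fibrinolysis, 5 were positive and 4 negative, with medians of -0.10 over 3 coagulation factors, 0.83 over 3 anticoagulants and 0.05 over Plat, Plau and Plaur. Of the positive members, Hc, Vtn and Plat turned negative when scaled by total counts only, and stayed positive under the RLE and upper quartile scalings.

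The libraries hold 68803304 to 98402403 counts, and the members take 0.183% to 0.257% of them. Levels are given as CPM, counts relative to a library total scaled by the TMM method of edgeR, on which 3 counts are 0.0337 to 0.0407 CPM. The tissue label was matched by the 6 adipocyte markers, which summed to 6658 and 4727 CPM in aged and 3860 and 3784 CPM in young MFP. Young replicate 1 stood apart by the 6 lymphocyte markers (Cd3e among them), which summed to 519 CPM there against 2.79 CPM in the other young library, and 6.48 and 52.6 CPM in aged MFP. The 7 skeletal muscle markers summed to 36265 and 57671 CPM in aged and 9476 and 13212 CPM in young MFP, and their part in the results was not tested. In bulk tissue, fewer cells of a type and less RNA per cell cannot be told apart.

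**Figure D1:**
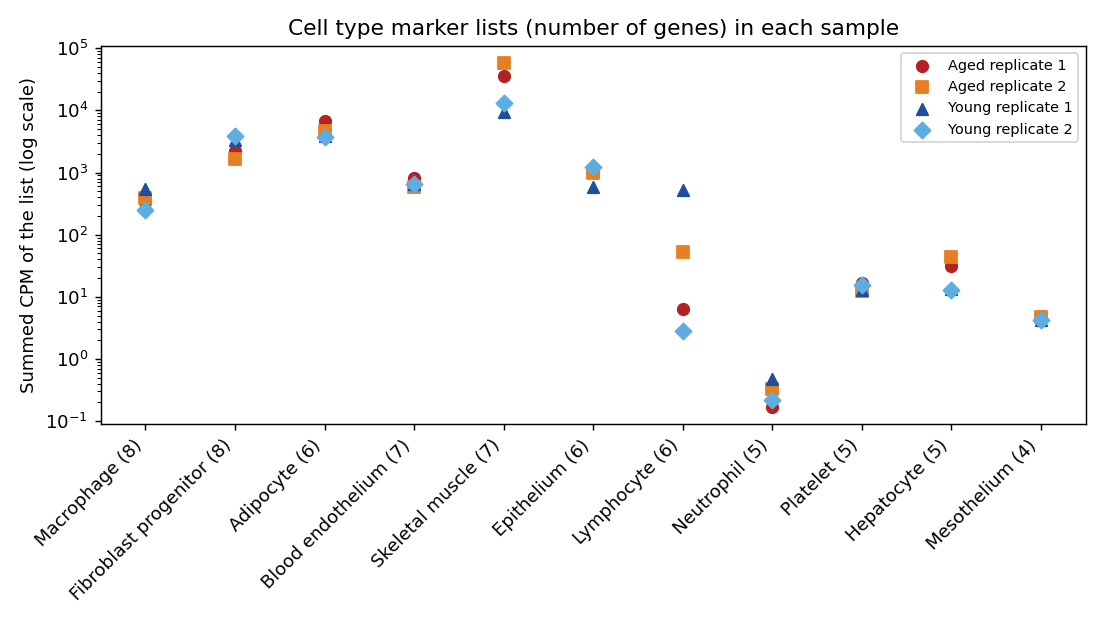
Summed CPM (log axis) of 11 lists of cell type markers, with the number of genes in each list, in the 2 aged and 2 young libraries. The lymphocyte list reaches 519 CPM in young replicate 1, against 2.79 CPM in the other young library, and the muscle list is highest in the aged libraries.

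The highest member per length of exon was C3, the central protein that all activation routes cut, at a mean of 198 CPM per kb over the 4 libraries. Clu, which encodes clusterin, a binder of terminal complexes, followed at 47.0 CPM per kb, C4b at 46.5, F3 at 36.5 and C1s1 at 32.2. The place of Clu rests on young replicate 1, at 81.6 CPM per kb, and C4b was above Clu in each other library. The lowest were F10, the gene of coagulation factor X, and Cfi, the gene of the protease that cuts C3b and C4b, both at 0.063 CPM per kb. C3 alone took 37.6% to 52.0% of the members' counts. The levels per kb rest on exon lengths of the annotation, not on the transcripts in this tissue. They could be too low for genes that share bases with other genes, such as Cfb.

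**Figure D2:**
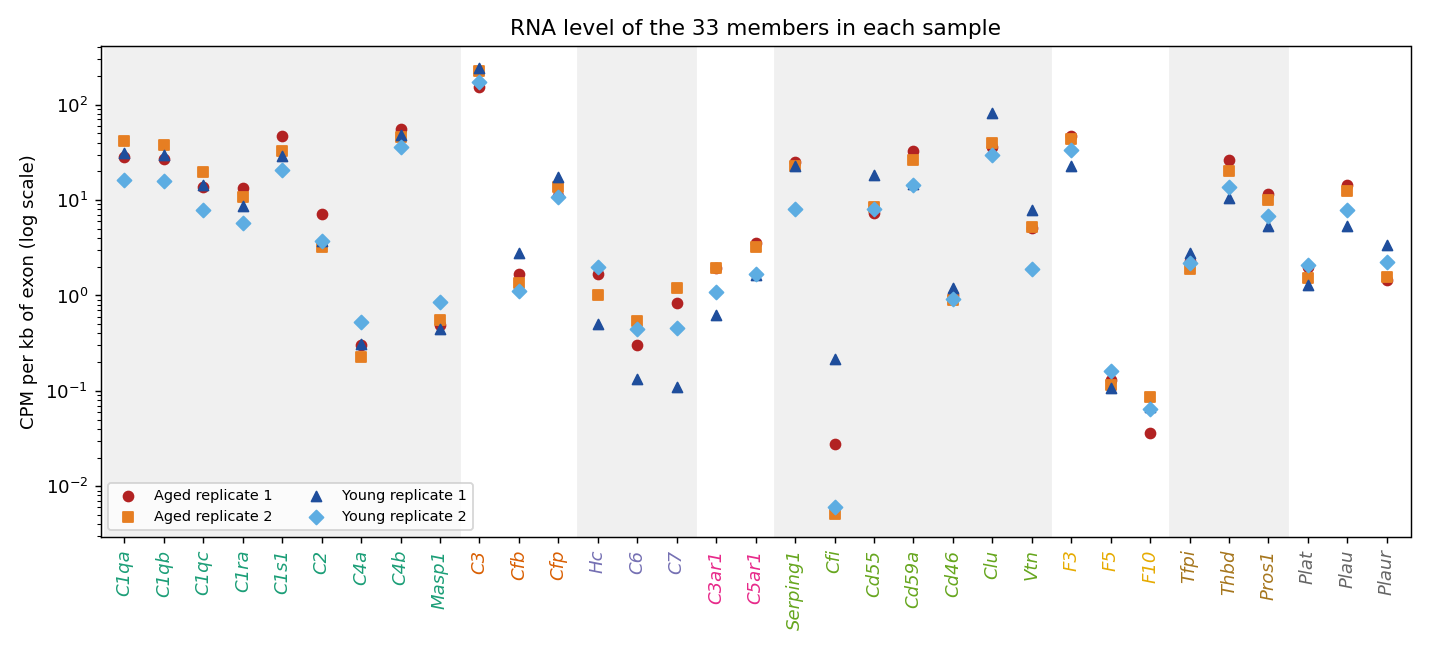
CPM per kb of exon (log axis) of the 33 members in each library, ordered by arm of the cascades, which are shaded in turn and coloured on the gene names. C3 is the highest, at a mean of 198 CPM per kb. The aged symbols lie above both young symbols for 11 members (23.3% of all genes), C3ar1, C5ar1, Cd59a, Thbd, Pros1 and Plau among them. They lie below both for 2 (22.8% of all genes).

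The genes of the C1q chains, C1qa, C1qb and C1qc, lie side by side on chromosome 4 of GRCm38 (136880129 to 136898803, minus strand). C1qa was at 29.8 and 43.4 CPM in aged and 32.7 and 16.8 CPM in young MFP. C1qb was at 29.0 and 40.9 CPM in aged and 32.01 and 17.3 CPM in young MFP. C1qc was at 26.6 and 37.9 CPM in aged and 27.5 and 15.0 CPM in young MFP. In each of the 3, young replicate 2 was lowest, aged replicate 2 was highest and the ages overlapped. Counts of C1qa over those of C1qb were 1.03 and 1.06 in aged and 1.02 and 0.972 in young MFP. Those of C1qc over C1qb were 0.919 and 0.925 in aged and 0.858 and 0.871 in young MFP. Both ratios were slightly higher in both aged libraries, and the chains kept nearly the same proportions in every library. Their log2 fold changes were 0.56, 0.50 and 0.60 (SE 0.41, 0.38 and 0.38), and edgeR's adjusted p-values 0.593, 0.604 and 0.565. Without young replicate 1 the log2 fold changes were 1.12, 1.02 and 1.10. Leaving out young replicate 2 instead gave 0.17, 0.14 and 0.24, so their size depends on which young library is kept. The 8 macrophage markers, in which Lyz2 takes the largest share in young replicate 1, summed to 331 and 392 CPM in aged and 543 and 252 CPM in young MFP, and their part in these values was not tested.

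The bases before the start are shown for C1qb (chr4:136886201-136886400) and C1qc (chr4:136893066-136893164), 5′ to 3′ on the minus strand of GRCm38, from RefSeq. Their part in the levels of these genes was not tested. Capitals mark GAGGAA or its reverse complement TTCCTC, a core bound by the myeloid factor PU.1.
C1qb: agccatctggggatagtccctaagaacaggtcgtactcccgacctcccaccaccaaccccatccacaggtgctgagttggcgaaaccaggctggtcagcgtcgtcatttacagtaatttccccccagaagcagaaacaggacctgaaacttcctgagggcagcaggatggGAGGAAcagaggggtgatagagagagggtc
C1qc: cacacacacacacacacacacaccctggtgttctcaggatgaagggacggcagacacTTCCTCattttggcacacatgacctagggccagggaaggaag
In the 200 bases before the start of a gene's first RefSeq entry, this motif was found on either strand for 4 of the 21 members with an entry (C1qb, C1qc, Cd59a and Plaur), and for 18.9% of 27025 genes. For C1qc only the 99 bases that lie before both annotated starts are printed. A match is a description of these letters. C1qa had no entry among these promoters, so it was not searched for the motif.

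The proteases of C1 were higher in both aged samples. C1ra, the gene of C1r, was at 39.6 and 32.5 CPM in aged and 26.1 and 17.1 CPM in young MFP (log2 fold change 0.74 ± 0.28, edgeR adjusted p = 0.479). C1s1, the gene of C1s, which C1r activates, was at 146 and 102 CPM in aged and 90.4 and 64.8 CPM in young MFP (log2 fold change 0.67 ± 0.27, edgeR adjusted p = 0.495). The ages did not overlap for either gene. The pair lies on chromosome 6 (124512405 to 124523443 and 124530345 to 124542359). Of the 75-base words of its transcript, 42.4% for C1ra also occur in C1rb or Gm18840 and 14.7% for C1s1 in C1s2. Part of their reads could therefore fit a copy as well. C1rb had 0 to 2 counts and C1s2 8 to 27 counts. How reads that fit several genes were counted is not given. If they were left out, the levels of C1ra and C1s1 are too low. C1s1 also overlaps the antisense gene Gm16567 in its exons. Beside them, the 8 fibroblast markers were split, with 4 higher and 4 lower in aged MFP and sums of 2244 and 1635 CPM in aged and 3280 and 3812 CPM in young MFP, and their part in these values was not tested.

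C4b, the gene of complement C4, and C4a, the gene of its copy known as sex-limited protein, differed in level and direction. C4b was at 320.0 and 259 CPM in aged and 276 and 203 CPM in young MFP, with overlap between the ages and a log2 fold change of 0.27 ± 0.23 (edgeR adjusted p = 0.635). C4a was at 1.88 and 1.41 CPM in aged and 1.90 and 3.31 CPM in young MFP, below both young samples, though by only a little for aged replicate 1, with a log2 fold change of -0.66 ± 0.42 (edgeR adjusted p = 0.566). Counts of C4b were 170 and 183 times those of C4a in aged and 145 and 61.5 times in young MFP, where young replicate 2 was lowest. Both are on the minus strand of chromosome 17 (C4b at 34728380 to 34743882, C4a at 34809092 to 34823464). Their longest transcripts in GENCODE M21 were identical in 95.9% of 5383 aligned positions and shared 23.6% of the 75-base words of C4a. To show how reads can tell them apart, the 60 bases with most differences inside the coding part of C4b are given, with the 13 differing bases in capitals, at transcript positions 2755 to 2814 of C4a and 2761 to 2820 of C4b.
C4a: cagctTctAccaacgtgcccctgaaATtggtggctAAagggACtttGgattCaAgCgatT
C4b: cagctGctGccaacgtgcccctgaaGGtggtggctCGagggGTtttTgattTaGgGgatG
The annotation gives C4a no protein-coding transcript. How the authors' counting treated reads that fit both genes is not given in the sources used here.

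C2, the gene of the protease that pairs with C4b, was at 27.8 CPM in aged replicate 1 and between 12.4 and 14.4 CPM in the other libraries. Its log2 fold change of 0.48 ± 0.43 (edgeR adjusted p = 0.651) became -0.22 without aged replicate 1. C2 and Cfb are joined in the annotation by the readthrough gene Gm20547, whose exons cover 1656 bases of C2 and 2246 bases of Cfb. Of the 75-base words of their transcripts, 55.6% for C2 and 81.2% for Cfb also occur in Gm20547. Gm20547 itself had 0 to 2 counts, so reads of the shared bases were hardly counted for it. How reads that fit several genes were counted is not given. If they were left out, the levels of C2 and Cfb rest on part of their bases and are too low. Masp1, a protease gene of the lectin route, was at 4.87 and 5.41 CPM in aged and 4.43 and 8.44 CPM in young MFP. It had a log2 fold change of -0.32 ± 0.39 (edgeR adjusted p = 0.735) that became 0.23 without young replicate 2.

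The ages overlapped for C3 and the genes of the alternative route. C3 (chromosome 17, 57203970 to 57228136) was at 785 and 1163 CPM in aged and 1239.9 and 887 CPM in young MFP. The log2 fold change of C3 was -0.13 ± 0.32 (edgeR adjusted p = 0.881). Cfb, the gene of factor B, was highest in young replicate 1 at 7.84 CPM and between 3.14 and 4.71 CPM elsewhere. Most of its exon bases are shared with Gm20547, so its level could be too low. Cfp, the gene of properdin, which stabilises the convertase, was at 19.3 and 23.6 CPM in aged and 30.3 and 18.6 CPM in young MFP. The log2 fold changes of Cfb and Cfp were -0.37 and -0.19, with SE of 0.52 and 0.30 (edgeR adjusted p-values 0.773 and 0.803). Without young replicate 1, where the lymphocyte markers were highest, they were 0.43 and 0.20, and that of C3 was 0.13.

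The terminal genes had the largest SE of the members tested, 0.73 to 0.78. C7 (chromosome 15, 4988762 to 5063740), a component of the membrane attack complex, was at 2.25 and 3.22 CPM in aged and 0.293 and 1.23 CPM in young MFP. These values come from 184 and 287 counts in aged and 24 and 91 counts in young MFP. Both aged samples were above both young ones, and the log2 fold change of 1.84 was the largest of the members tested (SE 0.78, edgeR adjusted p = 0.501). With each sample left out it ranged from 1.15 to 3.23, the highest without young replicate 2. C6, the gene of the component before it, was at 1.06 and 1.94 CPM in aged and 0.476 and 1.60 CPM in young MFP. Hc, the gene of C5, was at 10.5 and 6.33 CPM in aged and 3.13 and 12.5 CPM in young MFP. For C6 and Hc the ages overlapped, with young replicate 1 lowest, and the log2 fold changes were 0.54 and 0.10 (SE 0.73 and 0.74, edgeR adjusted p-values 0.767 and 0.961). Both turned negative without young replicate 1, at -0.09 for C6 and -0.58 for Hc.

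The receptors of the released fragments were higher in both aged samples. C5ar1 (chromosome 7, 16246743 to 16259540), the receptor of C5a, was at 9.20 and 8.25 CPM in aged and 4.23 and 4.35 CPM in young MFP. Within each age its samples lay close together, and the aged level was 2.03-fold the young one. C5ar1 had a log2 fold change of 1.02 ± 0.22, at adjusted p-values of 0.387 (edgeR) and 0.0021 (DESeq2). With each sample left out it ranged from 0.93 to 1.10. C3ar1 (chromosome 6, 122847138 to 122856161), the receptor of C3a, was at 8.35 and 8.39 CPM in aged and 2.71 and 4.65 CPM in young MFP. The aged samples were alike and the young samples differed, with a log2 fold change of 1.19 (SE 0.35, edgeR adjusted p = 0.431, DESeq2 adjusted p = 0.0652). Beside them, 7 of the 8 macrophage markers were higher in aged MFP, 4 of them without overlap between the ages (23.3% of all genes), with log2 fold changes from -1.12 to 0.81. The negative one was Lyz2, at 374 CPM in young replicate 1 and 45.9 to 119 CPM elsewhere. Csf1r, the receptor gene of macrophage growth factor, was at 66.3 and 71.7 CPM in aged and 58.0 and 48.7 CPM in young MFP. The part of macrophage number in these values was not tested.

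Among the complement regulators, Cd59a was the 1 gene that DESeq2 called, and it had the smallest SE of the members tested. Cd59a (chromosome 2, 104095801 to 104115354) encodes a membrane protein that blocks the attack complex. It was at 58.6 and 47.8 CPM in aged and 26.6 and 26.3 CPM in young MFP. The aged level was 2.01-fold the young one, which is 1.01 ± 0.17 on the log2 scale. Its adjusted p of 0.36 from edgeR equals the smallest of all genes tested, a value that other genes such as Cpn2 and Alb share. DESeq2 gave 0.0013. It ranged from 0.84 to 1.15 with each sample left out. Only 1.73% of the 75-base words of its transcript occur in its copy Cd59b. Serping1, the gene of C1 inhibitor, was at 58.7 and 53.3 CPM in aged and 52.8 and 18.8 CPM in young MFP. Its log2 fold change was 0.64 ± 0.53 (edgeR adjusted p = 0.625), 0.10 without young replicate 2 and 1.57 without young replicate 1, so that the young samples decide its size.

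The other regulators were highest in young replicate 1, the library with most lymphocyte marker RNA. That library was also the highest for 34.1% of all genes tested, and for 9 of the 32 members tested. Clu was at 125 and 137 CPM in aged and 280.5 and 103 CPM in young MFP, and its log2 fold change of -0.55 ± 0.51 became 0.35 without young replicate 1. Cd55, which encodes decay accelerating factor, was at 35.3 and 41.2 CPM in aged and 89.6 and 39.5 CPM in young MFP. Its log2 fold change of -0.75 ± 0.43 became -0.05 without that library. Vtn, the gene of vitronectin, was at 10.3 and 10.5 CPM in aged, between the young samples at 16.1 and 3.82 CPM, and its log2 fold change of 0.07 ± 0.72 became 1.45 without it. Cd46, which encodes a cofactor for the cut of C3b, was at 7.67 and 6.89 CPM in aged and 9.09 and 6.94 CPM in young MFP, with a log2 fold change of -0.14 ± 0.25. It overlaps A330023F24Rik on the other strand in 1079 exon bases. The adjusted p-values of these 4 were between 0.549 and 0.971 from edgeR on all samples. Cfi, the regulator gene that was not tested, had 5 and 1 counts in aged and 39 and 1 counts in young MFP, the 39 again in young replicate 1. The part of the lymphocytes in these values was not tested.

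**Figure D3:**
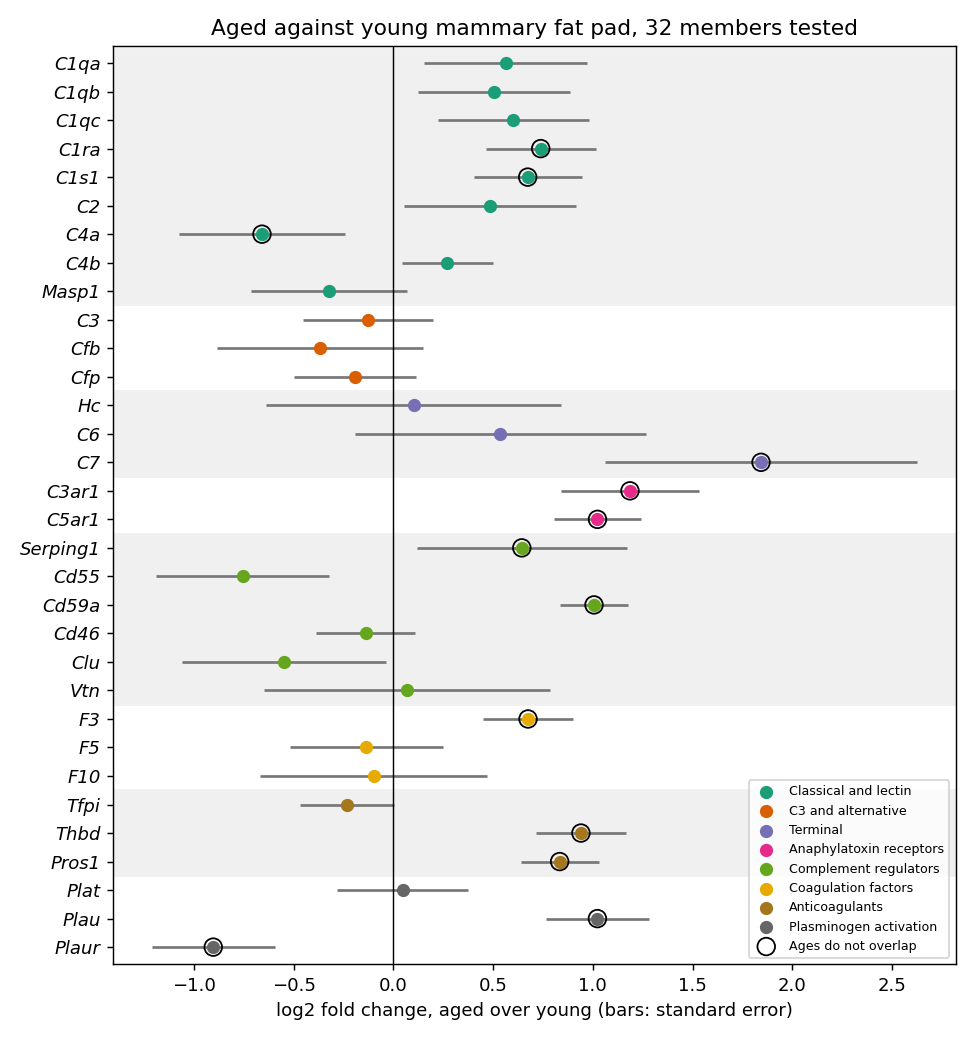
log2 fold change of aged over young MFP with its standard error (bars) for the 32 members tested, coloured by arm, with a ring where the aged and young samples do not overlap. C7, at 1.84, has the widest bar, and Cd59a and C5ar1, at 1.01 and 1.02, have narrow ones. edgeR called none of them.

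Of the coagulation factors, F3 was the abundant one. F3 (chromosome 3, 121723537 to 121735048) encodes tissue factor, the membrane protein that starts clotting. It was at 117 and 109.5 CPM in aged and 57.8 and 84.3 CPM in young MFP, above both young samples. F3 had a log2 fold change of 0.68 ± 0.23, at adjusted p-values of 0.46 (edgeR) and 0.274 (DESeq2). F5, the cofactor gene factor V, was at 0.954 and 0.865 CPM in aged and 0.805 and 1.19 CPM in young MFP. F10 had 8 and 21 counts in aged and 15 and 13 counts in young MFP. Their log2 fold changes were -0.13 and -0.10, with standard errors of 0.38 and 0.57 and overlap between the ages.

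The anticoagulant genes Thbd and Pros1 were higher in aged MFP, and Tfpi overlapped between the ages. Thbd (chromosome 2, 148404466 to 148408188) encodes thrombomodulin, which turns thrombin into an activator of protein C. It was at 97.5 and 75.4 CPM in aged and 38.7 and 51.4 CPM in young MFP. Thbd had a log2 fold change of 0.94 ± 0.23, at adjusted p-values of 0.406 (edgeR) and 0.0539 (DESeq2). Pros1 (chromosome 16, 62854307 to 62929346), the gene of protein S, a cofactor of protein C and a ligand of receptors on phagocytes, was at 47.7 and 40.9 CPM in aged and 22.1 and 27.6 CPM in young MFP. Pros1 had a log2 fold change of 0.83 ± 0.20, at adjusted p-values of 0.406 (edgeR) and 0.044 (DESeq2). Tfpi, the gene of the tissue factor inhibitor, was at 12.6 and 10.3 CPM in aged and 15.1 and 11.9 CPM in young MFP (log2 fold change -0.23 ± 0.23, edgeR adjusted p = 0.69). Counts of F3 were 9.33 and 10.6 times those of Tfpi in aged and 3.84 and 7.11 times in young MFP, higher in both aged libraries. Beside them, the ages overlapped for all 7 markers of blood endothelium, with log2 fold changes from -0.25 to 0.39, and that list summed to 807 and 590 CPM in aged and 643 and 663 CPM in young MFP. All 6 adipocyte markers were higher in both aged samples (23.3% of all genes), with log2 fold changes from 0.32 to 1.20. The part of either list in these values was not tested.

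Urokinase and its receptor went in opposite directions. Plau (chromosome 14, 20836660 to 20843385), the urokinase gene, was at 34.1 and 29.5 CPM in aged and 12.7 and 18.6 CPM in young MFP. The aged level was 2.03-fold the young one, which is 1.02 ± 0.26 on the log2 scale, at adjusted p-values of 0.409 (edgeR) and 0.0429 (DESeq2). Plaur (chromosome 7, 24462484 to 24475968), the gene of the receptor that holds urokinase on the cell surface, was at 3.79 and 4.10 CPM in aged and 8.93 and 5.83 CPM in young MFP. Both aged samples were below both young ones, with a log2 fold change of -0.90 ± 0.31, and an adjusted p of 0.462 from edgeR and 0.175 from DESeq2. Counts of Plau were 9.00 and 7.21 times those of Plaur in aged and 1.42 and 3.20 times in young MFP, without overlap between the ages. Without young replicate 1 the log2 fold changes were 0.77 for Plau and -0.56 for Plaur. Plat, the gene of tissue plasminogen activator, had 1005 and 847 counts in aged and 661 and 962 counts in young MFP, which is 0.05 ± 0.33 on the log2 scale.

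Across the members, 1 of the young libraries was usually the lowest. Young replicate 1 was lowest for 12 of the 32 members tested and young replicate 2 for another 12, where 33.8% and 22.6% of all genes tested were lowest. The members lowest in young replicate 2 were the C1q chains, C1ra, C1s1, C4b, Cfb, Cfp, Serping1, Cd59a, Clu and Vtn. Those lowest in young replicate 1 were Masp1, Hc, C6, C7, C3ar1, C5ar1, F3, F5, Thbd, Pros1, Plat and Plau. Leaving out 1 library moved the number of members at an unadjusted p under 0.05 from 8 to 16 without young replicate 1, where 12.1% of all genes were at that p, and to 16 without young replicate 2, where 27.9% were. Without aged replicate 1 it was 1, against 3.68% of all genes, and without aged replicate 2 it was 4, against 3.48%. In each of these fits the lone sample of an age is taken to vary like the other age, and edgeR called 0 members. A total of 19 of the 32 members kept their direction under every alternative tried, namely the C1q chains, C1ra, C1s1, C4b, C7, C3ar1, C5ar1, Serping1, Cd59a, F3, Thbd, Pros1 and Plau as higher and C4a, Cd55, Tfpi and Plaur as lower in aged MFP.

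**Figure D4:**
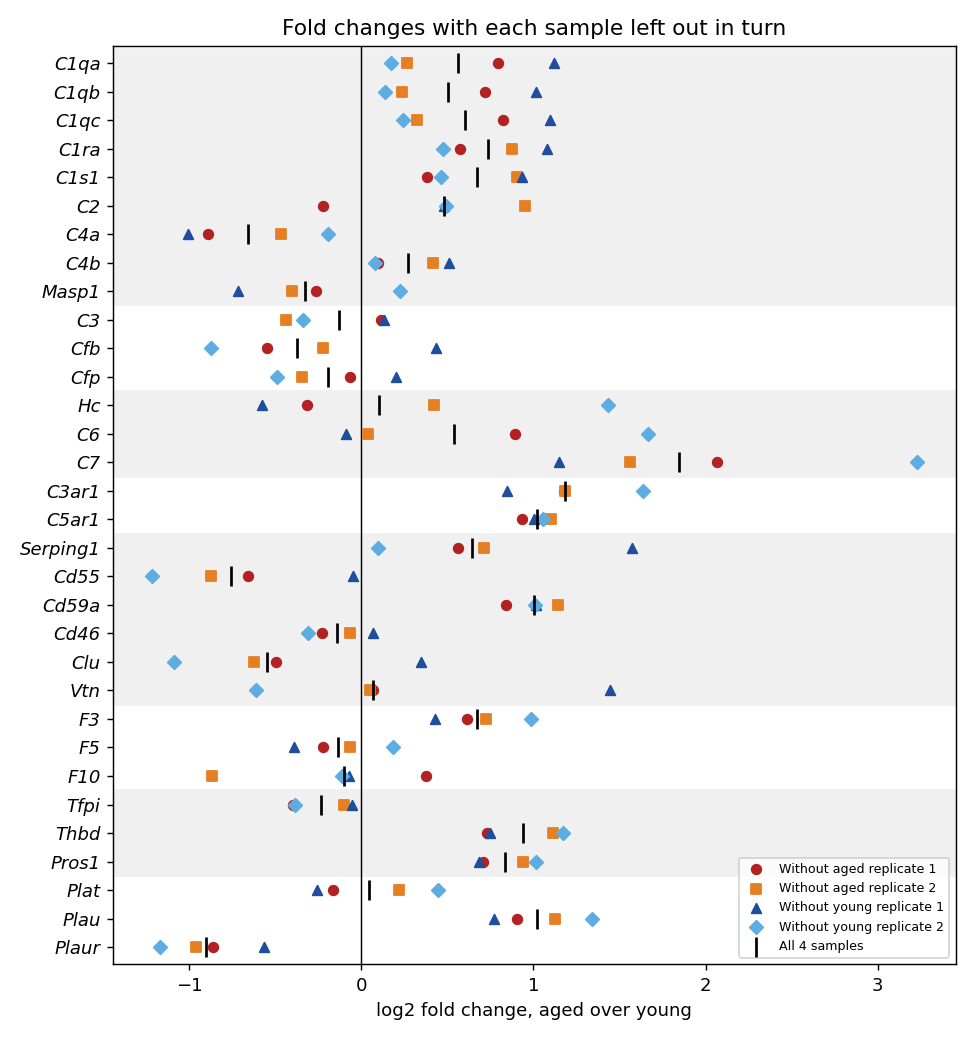
log2 fold change of aged over young MFP for the 32 members tested with all 4 libraries (black ticks) and without each library in turn (coloured symbols). Clu goes from -0.55 to 0.35 and Vtn from 0.07 to 1.45 without young replicate 1, while C5ar1 stays between 0.93 and 1.10.

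Other genes of the complement pathway were taken as a list of 34, of which 22 were tested. Of these, 11 had a positive and 11 a negative log2 fold change, with a median of -0.03, and edgeR called 0, with 4 at an unadjusted p under 0.05 (10.5% of all genes) and 1 called by DESeq2 (3.95% of all genes). Cfd, the adipsin gene, was by far the most abundant, at 4707 and 4133 CPM in aged and 2959 and 3289 CPM in young MFP. Both aged samples were above both young ones, with a log2 fold change of 0.50 (SE 0.32, edgeR adjusted p = 0.566, DESeq2 adjusted p = 0.237). Cr1l, the gene of the mouse convertase regulator Crry, and Cd93, a gene of endothelial and myeloid cells, overlapped between the ages, with log2 fold changes of -0.06 and 0.02. Cpn2, which encodes a subunit of the carboxypeptidase that trims C3a and C5a, was at 0.391 and 0.337 CPM in aged and 1.70 and 2.34 CPM in young MFP. Cpn2 had a log2 fold change of -2.47 ± 0.38, at adjusted p-values of 0.36 (edgeR) and 3.4e-05 (DESeq2). Cr2, the complement receptor gene of B cells and follicular dendritic cells, was at 84.0 CPM in young replicate 1, 4.37 CPM in aged replicate 2, 0.355 CPM in aged replicate 1 and 0.257 CPM in young replicate 2. Its log2 fold change of -4.15 ± 2.67 became 3.19 without young replicate 1.

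Of 30 other coagulation genes, 20 were tested, 8 with a positive and 12 with a negative log2 fold change. edgeR called 0 of them, with 2 at an unadjusted p under 0.05, and DESeq2 called 1, against the same 10.5% and 3.95% of all genes. That gene was Serpine2, which encodes protease nexin 1, an inhibitor of thrombin and of plasminogen activators. It was at 33.1 and 35.3 CPM in aged and 7.34 and 13.3 CPM in young MFP, with a log2 fold change of 1.73 (SE 0.34, edgeR adjusted p = 0.374, DESeq2 adjusted p = 9.0e-04). F2, the prothrombin gene, had 19 and 19 counts in aged and 46 and 40 counts in young MFP, with a log2 fold change of -1.30 ± 0.35. Vwf, the gene of von Willebrand factor of endothelium and platelets, was at 203 and 163 CPM in aged and 50.8 and 136 CPM in young MFP. Its log2 fold change of 0.97 ± 0.52 became 0.42 without young replicate 1, and reached 1.86 with another sample left out. F13a1 and Ggcx, the genes of a fibrin crosslinking enzyme and of the vitamin K dependent carboxylase, had log2 fold changes of 0.08 and 0.04 with overlap.

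Of 10 other fibrinolysis genes, 6 were tested, 3 in each direction, and edgeR and DESeq2 called 0 of them, with 1 at an unadjusted p under 0.05 in edgeR (Serpinf2, against 10.5% of all genes). Lrp1, the receptor that clears complexes of protease and inhibitor, was at 1685 and 955 CPM in aged and 723 and 869 CPM in young MFP, which is 0.73 ± 0.36 on the log2 scale. Anxa2 and S100a10, whose proteins bind plasminogen at the cell surface, had log2 fold changes of 0.06 and -0.26. Serpinf2, the antiplasmin gene, had 9 to 20 counts in every library and a log2 fold change of -1.08 ± 0.39. Plg, the plasminogen gene, had 0 to 4 counts in every library, and of the 5 liver markers Ttr was at 0 in every library and Apoa1, Serpina1a and Ahsg had 0 to 31 counts. Alb, the albumin gene, was at 30.7 and 42.6 CPM in aged and 12.8 and 12.2 CPM in young MFP, with a log2 fold change of 1.55 ± 0.23 at adjusted p-values of 0.36 (edgeR) and 1.6e-05 (DESeq2).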

How the data were processed

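Whole MFP RNA of 2 aged and 2 young samples was depleted of ribosomal RNA and made into directional libraries. The authors deposited whole-number counts of reads per gene, 1 column per sample, not normalized, filtered or pooled; the submitters' processing notes name featureCounts, R 3.6.1 and GRCm38. The aligner, the strand setting and the treatment of reads that fit several genes are not given in the sources used here. Groups and replicate numbers came from sample titles, with 0 columns left unused.

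From the counts, 22485 genes were kept by filterByExpr, scaled (TMM) and tested by glmQLFit with glmQLFTest (edgeR 4.0.16, R 4.3.3), with age as the only term and Benjamini-Hochberg adjustment over all genes at 0.05. The study's methods name DESeq2 (1.42.0 here), run as an alternative. The standard error is the size of the log2 fold change over the square root of F. Code was tested on simulated data. Alternatives were other scalings, filters on low counts (none, or at least 10 counts in every sample), DESeq2, the replicate block and leaving out each sample. Whether samples are separate animals is not stated beyond the label, so p-values measure the spread between these samples, and count floors cover counting error only.

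The named genes were all 33 members and, of each list of other pathway genes, the 3 highest in CPM and the 2 with the largest absolute log2 fold change, except 1 gene not reported here. The members and lists were chosen with earlier results of these data known. GENCODE M21 (GRCm38) holds 55141 of the 55487 identifiers; promoters are from RefSeq.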

Additional observations from a re-analysis of the deposited data

How the results depend on the processing

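DESeq2 called 869 genes and 4 members, where edgeR called 0 of each; under every other alternative, the leave-one-out fits included, edgeR called 0. The replicate numbers rest on the labels alone, and the deviations of same-numbered samples correlated at -0.48 across genes. Under the replicate block, 0 genes and 0 members were called, and 1346 genes and 9 members were at an unadjusted p under 0.05, against 2371 and 8 without it. Crossing the numbers, an alternative chosen after seeing the data, also called 0 genes and 0 members. Of 383 recomputed member values, 360 kept their direction and side of the threshold, 4 passed it (DESeq2) and 19 changed direction.

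Scaling by total counts only moved the median log2 fold change of all genes from -0.04 to -0.22 and that of the members from 0.38 to 0.21. Under it the log2 fold change became -0.071 for Hc, -0.11 for Vtn, -0.13 for Plat, -0.15 for Cd93 (-0.012 under upper quartile scaling), -0.11 for F13a1, -0.14 for Ggcx and -0.12 for Anxa2. Requiring at least 10 counts in every sample, which removes F10, moved the median to 0.48 for the members and 0.27 for the coagulation factors.

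Leaving out 1 sample at a time, the median log2 fold change ranged from 0.21 to 0.46 over all members, 0.23 to 0.93 over the classical and lectin genes, -0.49 to 0.20 over C3, Cfb and Cfp, -0.089 to 1.67 over the terminal genes, 0.93 to 1.35 over the fragment receptors, -0.46 to 0.68 over the complement regulators, -0.072 to 0.38 over the coagulation factors and -0.26 to 0.45 over Plat, Plau and Plaur. Single genes that changed direction ranged from -0.22 to 0.95 for C2, -0.72 to 0.23 for Masp1, -0.44 to 0.13 for C3, -0.87 to 0.43 for Cfb, -0.49 to 0.20 for Cfp, -0.58 to 1.43 for Hc, -0.089 to 1.67 for C6, -0.31 to 0.069 for Cd46, -1.09 to 0.35 for Clu, -0.61 to 1.45 for Vtn, -0.39 to 0.19 for F5, -0.87 to 0.38 for F10 and -0.26 to 0.45 for Plat. Among the other pathway genes they ranged from -6.89 to 3.19 for Cr2, -0.25 to 0.16 for Cr1l, -0.19 to 0.20 for Cd93, -0.32 to 0.65 for F13a1, -0.047 to 0.14 for Ggcx and -0.12 to 0.28 for Anxa2. The causes were not tested.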

Other observations

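Of the wider pathways, Fcna and Cd59b, picked with their levels already known, were higher in both aged samples. Of the 22 other complement genes tested, both aged samples were above both young ones for 6 and below them for 3. The shares of all genes were 23.3% and 22.8%. Of the 20 other coagulation genes tested, 4 were above and 6 below, and of the 6 other fibrinolysis genes tested, 1 was above and 2 below. Fcna, the gene of the lectin ficolin A, was at 4.05 and 3.10 CPM in aged and 1.83 and 2.14 CPM in young MFP. Cd59b, the copy of Cd59a, was at 2.96 and 3.01 CPM in aged and 1.54 and 1.55 CPM in young MFP, with a log2 fold change of 0.95 beside 1.01 for Cd59a.

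Serpina10, the gene of an inhibitor of factor X, had 860 counts in young replicate 1, 11 in aged replicate 2 and 0 in each other library. Adamts13, the gene of the protease that cuts von Willebrand factor, had 122 counts in young replicate 1, 9 in aged replicate 2, 0 in aged replicate 1 and 1 in young replicate 2. Both were highest in the libraries with most lymphocyte marker RNA, whose part was not tested.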
